A study of Mus musculus with 24 samples.

Results

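The comparison described here sets 3 arrays of Adn-C/EBPα-/- mice against 3 arrays of their control littermates, 6 of the 24 arrays of the series. All 6 arrays were of RNA from whole subcutaneous adipose tissue of C57BL/6J mice, 10 weeks old, titled for 3 days on chow, and the series text gives the chow of the knockouts as containing doxycycline. The arrays were chosen by their titles, because the genotype field lists the knockout genotype for controls too. What the prefix Adn stands for, which promoter drove the deletion and whether the controls carry any of its alleles: none of this is stated in the labels. The labels number the replicates but do not say that each was a separate animal, so the errors measure the spread between these arrays, which may be technical. The other 18 arrays are used only for the shared spread and for side-by-side values. They hold the same knockout after 3 days on a doxycycline high fat diet at 10 weeks of age, the same after 1 month at 14 weeks, and Adn-PPARγ-/- mice after 3 days on doxycycline chow at 10 weeks, each with 3 knockout arrays and 3 arrays of its own controls.

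C/EBPα is a transcription factor of the basic leucine zipper class that binds DNA as a dimer and rises late in fat cell formation. It and the nuclear receptor PPARγ keep each other's expression up, and C/EBPα is known for driving genes of insulin response, adipokine secretion and, in the liver, acute phase proteins. The series title is about the gene programs of each factor in fat cells that have already matured, in the living animal. In RNA of whole tissue, fewer cells of a type and less RNA per cell cannot be told apart.

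Each Illumina BeadChip array gives 1 brightness value per probe, and a signal is given here as that intensity above the background of its set of arrays. The 6 chow arrays had a background of 132 and a median intensity of 151, and 58.2% of 45281 probes were brighter than background. Between arrays of a group, Pearson's r over all probes lay between 0.991 and 0.993, and between the groups it lay between 0.990 and 0.992. Dim genes varied more here than elsewhere. In the dimmest of 4 equal bins of genes the median SD between arrays of a group was 0.23 on the log2 scale, against 0.13 to 0.15 in the other sets. In the brightest bin it was 0.104, against 0.094 to 0.105. The fit gave the chow arrays 1 precision weight for all genes, 0.744, against 1.01 to 1.18 in the other sets. Such a weight does not follow brightness, so the errors of dim genes can be too small. The number of arrays limits the precision.

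Over 14579 genes, each represented by the probe of highest mean signal over all 24 arrays, 32 genes differed between knockout and control (0.219% of the genes tested), 15 higher (0.103%) and 17 lower (0.117%). A gene is called where limma's adjusted p was under 0.05, and log2 fold changes, given ± SE, are differences between group means of log2(signal + 16), knockout minus control. On simulated data the share of false calls was above the nominal one, so the adjusted p-values given here can be too small. The calls that fell were the larger ones: 8 genes were at least 2-fold lower, among them the major urinary protein genes Mup2 and Mup6, Nudt6, Fgfr1op2 and Cebpa itself, and 2 genes, Cpne9 and Gpx8, were at least 2-fold higher. In each of the 32 genes all 3 knockout arrays lay on 1 side of all 3 controls, which held for 17.9% of all genes (9.62% higher and 8.27% lower). The median log2 fold change of all genes tested was 0.01, and 1673 genes (11.5%) had an unadjusted p under 0.05. At the edge of the threshold, Jak1 was the last gene inside (adjusted p = 0.0481) and Vamp8, a vesicle fusion protein, the nearest outside (0.47 ± 0.10, adjusted p = 0.0515).

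The list of called genes depends on how the spread is treated. With every array weighted equally limma called 162 genes (1.11%), 81 in each direction (0.556% each) and all 32 among them, whereas fitting only the 6 arrays compared called 1, Csrp1, which is not among the 32. Leaving out control replicate 3 left 4 calls, Nudt6, Mup6, Fgfr1op2 and Fip1l1, while 13 genes were called without knockout replicate 2 and 19 without knockout replicate 3. Mup6 and Nudt6 were called in each of the 6 fits that lacked an array, at an adjusted p of 0.0451 or less. Of the 32 probes, 11 were not above background on all 6 arrays. The plot of change against level shows these dim calls at the left edge and the larger falls spread over the range of levels.

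**Figure D1:**
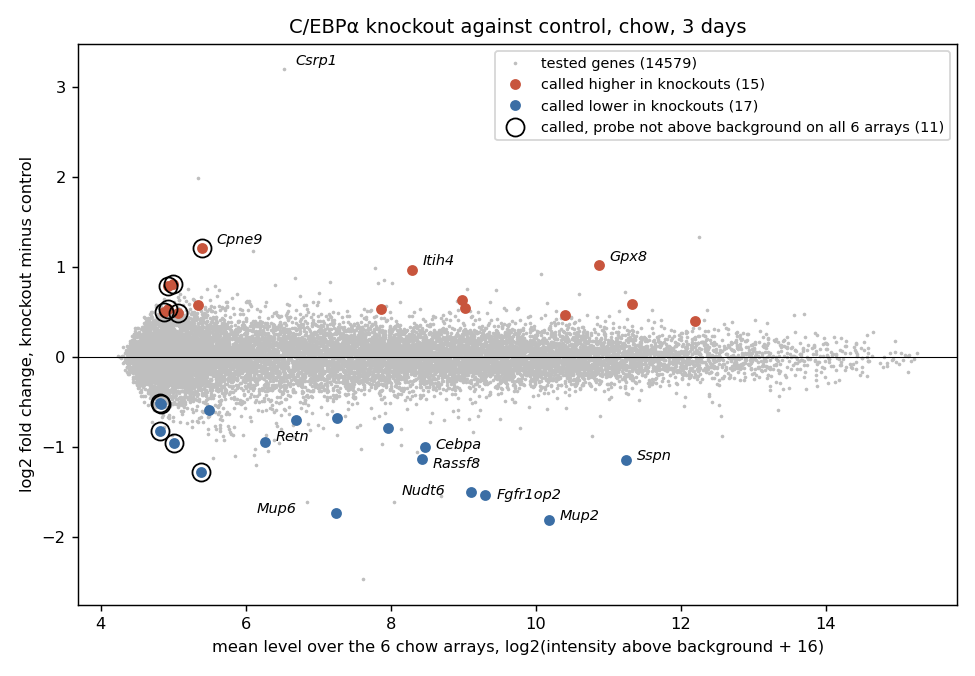
Log2 fold change (knockout minus control) of each tested gene against its mean log2 level over the 6 chow arrays, with called genes in colour and circles around those whose probe was not above background on all 6 arrays. The 8 genes at least 2-fold lower include bright probes such as Sspn and Mup2, while 11 of the 32 called probes are dim.

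Cebpa, the targeted gene, was lower in the knockouts but far from absent. Its probe ILMN_1247147 gave signals of 436, 484 and 542 in the 3 controls and 229, 259 and 216 in the 3 knockouts. The groups did not overlap, and 48.2% of the mean control signal remained. The log2 fold change was -1.003 ± 0.16 (SE, n = 3 arrays per group, limma adjusted p = 0.0105). Without control replicate 3 it was -0.93 with an adjusted p of 0.0990, and with the 6 arrays fitted by themselves the adjusted p was 0.0946. Where the probe lies relative to the deleted part was not analysed here, and the share of cells that lost the gene cannot be read from the remaining signal.

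The other members of the C/EBP family did not pass the test. Cebpb and Cebpd, which act early in fat cell formation, were at -0.09 ± 0.14 and 0.04 ± 0.16, and Cebpe, mainly a myeloid factor, was at 0.07 ± 0.23. Ddit3, the stress-induced member that blocks the others by dimerizing with them, read 467, 470.3 and 429.6 in controls and 726, 594 and 570.5 in knockouts, without overlap (0.45 ± 0.11, adjusted p = 0.0850). Cebpg was at 0.52 ± 0.17 (adjusted p = 0.244), also without overlap. Pparg has 3 probes, which stood at -0.23, -0.01 and -0.43 on the log2 scale, none of them called.

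The tissue read as fat. All 16 tested adipocyte markers were above background on all 6 arrays, among them adiponectin (Adipoq), perilipin 1 (Plin1), the fatty acid binding protein Fabp4 and Cidec. Of these 16, 12 were below 0 and 1 was called (Retn, lower, as were 0.117% of all genes). Their median was -0.06 against 0.01 over all genes. The summed signal of the markers was 187726 to 196556 in controls and 174437 to 192125 in knockouts, so it overlapped, with 4 of the 16 lower and 1 higher without overlap. Here and below, such a sum is set mostly by the brightest members of its list. Macrophage markers had 0 of 25 called, a median of 0.14 and sums that overlapped (63305 to 71241 in controls, 68933 to 72019 in knockouts). Of these 25, 19 were above 0, and in 8 every knockout array was above every control array, which is called separated upward here (9.62% of all genes were), against 1 separated downward. B and T lymphocyte markers had 0 of 14 called, 13 below 0 and 3 separated downward (8.27% of all genes were), with a median of -0.64, and their sums overlapped as well (3601 to 4721 against 3239 to 3744).

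In 3 cell type lists the sums did not overlap, each higher in the knockouts. The 12 smooth muscle and pericyte markers summed to 11119 to 11422 in controls and 12417 to 13755 in knockouts, with 0 called and 4 separated upward. The 5 red blood cell markers, hemoglobin genes among them, summed to 20708 to 25802 and 25993 to 32128, with 0 called and a median of 0.23. The 16 neutrophil and mast cell markers summed to 5419 to 5852 in controls and 7422 to 7643 in knockouts, with 0 called. Of these 16 markers 5 were separated upward (9.62% of all genes) and 4 downward (8.27%). The mast cell proteases Mcpt4 (0.60 ± 0.20), Cpa3 (0.51 ± 0.18), Cma1 (0.61 ± 0.24) and Tpsb2 (0.45 ± 0.21) and the neutrophil protease Prtn3 (0.71 ± 0.25) were higher without overlap. The neutrophil genes S100a9 (-1.20 ± 0.44), S100a8 (-0.98 ± 0.55), Camp (-0.86 ± 0.40) and Ltf (-0.80 ± 0.52) were lower without overlap. None of these 9 passed the test, at adjusted p-values from 0.267 for Mcpt4 to 0.594 for Ltf. Lists for stroma, endothelium, epithelium, skeletal muscle and nerve had 0 members called and sums that overlapped. The part of these cell types in the results that follow was not tested.

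The major urinary proteins, small lipocalins that carry pheromones and are made mainly in the liver, gave the largest falls among the called genes. Mup2 read 1801, 1882 and 2912 in controls and 694.5, 449 and 699.9 in knockouts, so that 27.9% of the mean signal remained (-1.81 ± 0.33, adjusted p = 0.0208). Its other 2 probes were lower too, at -1.56 and -1.91, and both passed the test over all probes. Mup6 read 204, 235 and 364 in controls and 83.9, 55.8 and 64.5 in knockouts, with 25.4% remaining (-1.73 ± 0.24, adjusted p = 0.00427). Mup20, which encodes the male pheromone darcin, was dimmer, at 32.0, 57.3 and 62.5 against 11.5, 7.68 and 13.7, and its probe was above background on 1 of the 3 knockout arrays (-1.28 ± 0.22, adjusted p = 0.0159). In all 3 genes every knockout array was below every control array, and of the controls replicate 3 was the highest. Without knockout replicate 2 the adjusted p of Mup2 was 0.117, and without control replicate 3 that of Mup20 was 0.0990.

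Of the 6 tested members of this family 3 were called lower (0.117% of all genes were) and 0 higher (0.103%), and their median was -1.02. Mup3 was lower without overlap but not called (-0.75 ± 0.27, adjusted p = 0.291), and Mup21 and Mup5 were at -0.15 ± 0.17 and 0.39 ± 0.40. In the reference gene order these 6 tested genes stand side by side. As members of 1 gene family they may share sequence, so a probe may take up RNA of more than 1 of them and the split between members is uncertain. Promoters are shown for the pair with the largest falls. The 250 bases before the start of Mup6 and Mup2 (RefSeq, GRCm38.p6) matched at 199 of 250 aligned columns, 79.6%. The capitals in Mup6 mark the match to TATAAA, whose first base lies 27 bases before the start. TATAAA on either strand is in 13.0% of the 27025 promoters of the table, and the Mup2 window has no match to it.
Mup6, chr4:60003231-60003480, plus strand: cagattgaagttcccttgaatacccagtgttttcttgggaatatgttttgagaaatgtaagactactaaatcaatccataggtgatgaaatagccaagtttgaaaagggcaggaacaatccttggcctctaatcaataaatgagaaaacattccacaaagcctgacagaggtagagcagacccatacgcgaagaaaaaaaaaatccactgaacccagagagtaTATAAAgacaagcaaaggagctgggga
Mup2, chr4:60139857-60140106, minus strand: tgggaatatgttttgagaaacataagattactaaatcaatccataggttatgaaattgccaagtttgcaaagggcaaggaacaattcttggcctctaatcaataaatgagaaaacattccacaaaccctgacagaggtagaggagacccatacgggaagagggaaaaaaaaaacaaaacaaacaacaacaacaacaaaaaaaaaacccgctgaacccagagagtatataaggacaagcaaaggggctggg

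Nudt6, a nudix hydrolase gene, was with Mup6 the gene called in all 6 fits that lacked an array. It read 811, 933 and 979 in controls and 312.5, 400.1 and 240.1 in knockouts, and 35.0% of the signal remained (-1.49 ± 0.21, adjusted p = 0.00427). Nudt6 overlaps the growth factor gene Fgf2 on the opposite strand. The Fgf2 probe, looked up after the values of Nudt6 were seen, stood at -0.02 ± 0.17 with overlapping groups, 23.4 to 26.8 in controls and 20.8 to 28.2 in knockouts.

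Retn encodes resistin, an adipokine that is a textbook target of C/EBPα. Its signals were 80.2, 74.4 and 124 in controls and 46.1, 46.1 and 27.9 in knockouts, a log2 fold change of -0.95 ± 0.19 (adjusted p = 0.0365) that left 43.2% of the mean. Without control replicate 3, the brightest of the controls, the adjusted p was 0.136. Retn was the 1 called member among 13 textbook C/EBPα targets (0.117% of all genes were called lower). Of the 13, 12 were below 0, with a median of -0.18 against 0.01 over all genes. The others below 0 without overlap were the cortisone-reactivating enzyme gene Hsd11b1 (-0.37 ± 0.12), haptoglobin Hp (-0.59 ± 0.21), Adipoq (-0.27 ± 0.11) and Pparg (-0.23 ± 0.13), at adjusted p-values from 0.251 to 0.529. Leptin (Lep), the insulin-regulated glucose transporter Slc2a4, Scd1 and Fabp4 stood between -0.03 and 0.02. The summed signal of the 13 targets was 143190 to 150320 in controls and 122988 to 135310 in knockouts, without overlap. Of these 13, 5 were separated downward, every knockout array below every control array (8.27% of all genes were). The 15 tested textbook PPARγ targets had 0 called, 13 below 0 and 4 separated downward, with a median of -0.08. Their summed signal did not overlap, at 179864 to 184500 in controls and 164130 to 178159 in knockouts. Both target lists hold Adipoq, Fabp4, Scd1, Pck1 and Pnpla2, so their sums are not independent.

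The promoters of the called genes were searched for a C/EBP motif, TTGC and AA with any 2 bases between them, on both strands in the 250 bases before the start. Of the 32 genes 24 have a promoter in the RefSeq table, and 2 of these, Fip1l1 and Rfk, held a match (8.33%), against 9.55% of all 27025 promoters. Among the 14 called lower with a promoter, 1 held a match. Retn is shown because it is the textbook target, with no match in this window, and Fip1l1 because its match, in capitals, begins 87 bases before the start. A match in the letters is a description of the sequence and was not compared with binding.
Retn, chr8:3655520-3655769, plus strand: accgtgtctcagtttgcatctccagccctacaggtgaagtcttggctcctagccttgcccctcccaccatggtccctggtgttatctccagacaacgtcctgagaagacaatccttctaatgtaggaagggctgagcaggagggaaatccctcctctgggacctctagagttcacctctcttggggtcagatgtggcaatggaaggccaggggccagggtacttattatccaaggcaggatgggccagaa
Fip1l1, chr5:74535241-74535490, plus strand: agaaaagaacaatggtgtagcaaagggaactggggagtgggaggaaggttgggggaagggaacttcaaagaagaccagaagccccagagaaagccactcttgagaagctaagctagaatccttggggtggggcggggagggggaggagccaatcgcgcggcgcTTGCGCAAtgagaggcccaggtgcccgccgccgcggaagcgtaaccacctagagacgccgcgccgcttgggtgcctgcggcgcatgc

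Jak1 and a transcript with no named function were called lower as well. Jak1, the kinase of many cytokine receptors, read 299, 276 and 361 against 155, 193 and 174 by its chosen probe (-0.78 ± 0.16, adjusted p = 0.0481). The other 2 Jak1 probes stood at 0.03 and 0.02, so the gene's probes disagree, and each of the 6 fits that lacked an array lost the call, with adjusted p-values up to 0.163. The transcript 1700029I15Rik read 125, 103 and 118 against 70.6, 50.1 and 77.2 (-0.69 ± 0.14, adjusted p = 0.0351). Its adjusted p was 0.160 without knockout replicate 2.

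**Figure D2:**
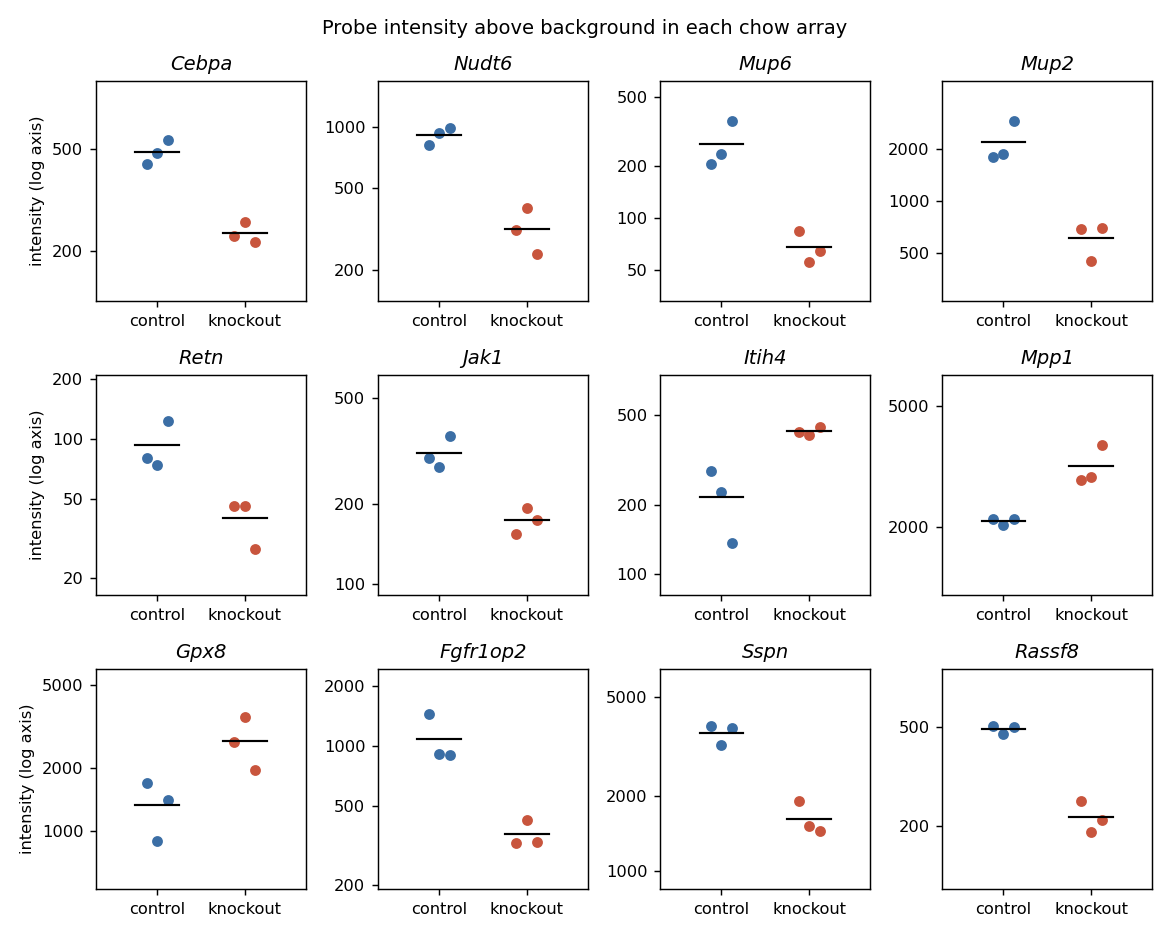
Signal above background (log axis) of 12 called genes in each of the 3 control and 3 knockout arrays on chow, with lines at the group means. The groups do not overlap in any panel. Control replicate 3, the right-hand blue point, is the highest control for Cebpa, Nudt6, Mup6, Mup2, Retn, Jak1 and Mpp1. It is the lowest control for Itih4 and Fgfr1op2.

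A run of 3 genes that lie close together in the reference gene order fell on chow: Rassf8, a Ras-association domain protein of cell junctions, Sspn, the sarcospan of the dystrophin complex, and Fgfr1op2, named for its fusion with FGFR1 in leukaemia. Fgfr1op2 read 1441, 913 and 899.5 in controls and 323.5, 422 and 329.7 in knockouts (-1.53 ± 0.25, adjusted p = 0.0105). A second probe of Fgfr1op2 fell less, at -0.44, with means of 339 in controls and 248 in knockouts, and did not pass limma's test over all probes (adjusted p = 0.267). Sspn read 3813, 3190 and 3752 against 1914, 1508 and 1439 (-1.14 ± 0.21, adjusted p = 0.0208). Rassf8 read 507, 471 and 502.5 against 252, 189 and 211 (-1.13 ± 0.20, adjusted p = 0.0208). By its chosen probe each gene kept between 33.0% and 45.2% of its signal, with no overlap of the groups. Without 1 array the highest adjusted p was 0.0506 for Fgfr1op2 (control replicate 1), 0.101 for Sspn and 0.115 for Rassf8 (knockout replicate 2 for both).

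Between Sspn and Fgfr1op2 lie the tested genes Itpr2 and Ints13, which stood at 0.01 ± 0.13 and -0.17 ± 0.14 with overlapping groups, so the falls were not shared by every gene of the run. On the other side of Rassf8 in that order, Bcat1, which starts branched chain amino acid breakdown, was higher without overlap (194, 202 and 145 against 330.1, 349.9 and 309.7) but was not called (0.83 ± 0.19, adjusted p = 0.0748). In the other sets the 3 genes lay closer to 0. Fgfr1op2, Sspn and Rassf8 stood at 0.02, 0.19 and -0.30 after 3 days of high fat diet in the same knockout, at -0.14, -0.43 and -0.36 after 1 month, and at 0.02, 0.02 and -0.10 in the PPARγ knockout on chow. The genes were chosen by the chow arrays that also enter the differences below, so those tests are not separate evidence. The difference from the PPARγ knockout was called for each (adjusted p = 0.0130, 0.0249 and 0.0445). The difference from high fat diet was -1.55 for Fgfr1op2 (95% interval -2.23 to -0.86), -1.34 for Sspn (-1.91 to -0.77) and -0.83 for Rassf8 (-1.39 to -0.27), with adjusted p-values of 0.126, 0.110 and 0.362.

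**Figure D3:**
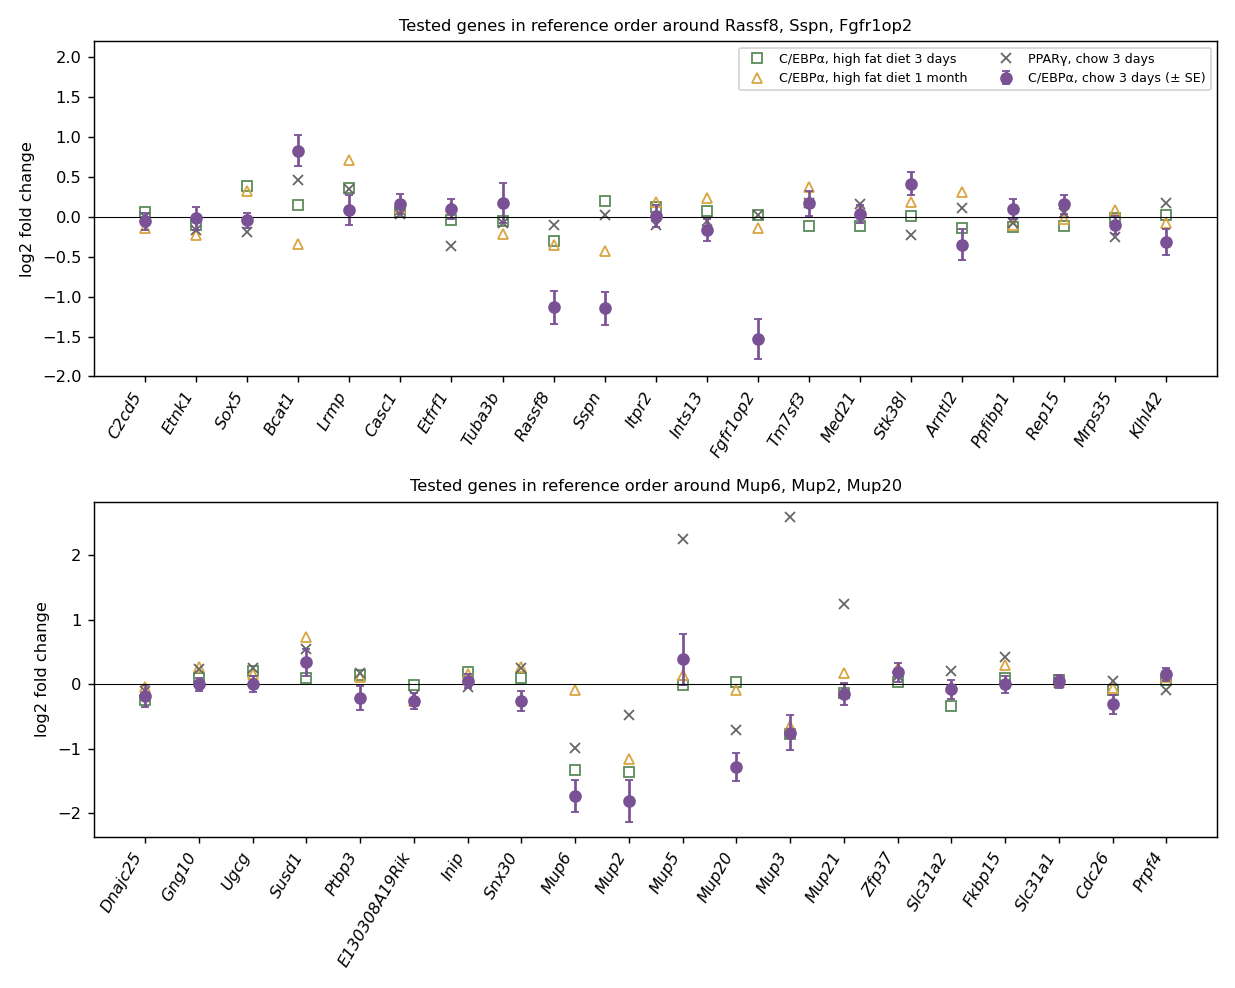
Log2 fold change of tested genes in reference gene order around Rassf8, Sspn and Fgfr1op2 (top) and around the major urinary protein genes (bottom), for the chow C/EBPα knockout (filled, ± SE) and the 3 other knockout comparisons. The 3 upper genes are low in the chow set, with Itpr2 and Ints13 near 0 between them, while Mup2 and Mup6 are low after 3 days of high fat diet too.

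The 6 other genes called lower were dim or moved less. Fip1l1, a subunit of the polyadenylation machinery, read 192, 190.1 and 152 against 115, 94.6 and 105 (-0.68 ± 0.13, adjusted p = 0.0228). Its other 3 probes lay between -0.22 and 0.21. Adam10, a membrane protease that sheds receptor ectodomains, read 42.3, 34.6 and 40.9 against 19.3, 19.4 and 23.9 (-0.58 ± 0.09, adjusted p = 0.0105). In 4 genes no knockout array was above background and the fall has only a bound: Adamts17, a secreted metalloprotease, at least 1.60-fold lower, the glycolipid-modifying enzyme gene Gbgt1 at least 1.33-fold, Tvp23b at least 1.22-fold and the red cell membrane gene Ermap at least 1.21-fold (adjusted p = 0.0138, 0.0228, 0.0275 and 0.0460). For these bounds, on the log2(signal + 16) scale, the mean of the bright group was set against the lowest signal above background on the dim arrays. The 3 control arrays by themselves were enough for these 4 genes to pass the filter on dim probes, so the filter favours such falls. Gbgt1 and Tvp23b were no longer tested at a background bandwidth of 0.08. Tvp23b and Ermap were outside the rule for named genes and are given so that the calls are complete.

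Among the 15 higher genes, the acute phase protein gene Itih4 and the peroxidase gene Gpx8 had 3 probes each, all of them above 0. Itih4, a heavy chain of the inter-alpha-trypsin inhibitor family, read 284, 229 and 137 in controls and 421, 409 and 441 in knockouts (0.97 ± 0.18, adjusted p = 0.0239), and its other 2 probes stood at 1.05 and 0.82 without passing the test over all probes. Gpx8, a peroxidase of the endoplasmic reticulum, read 1695, 901.5 and 1419 against 2671, 3532 and 1955 (1.02 ± 0.21, adjusted p = 0.0460), and its other probes, at 1.28 and 0.93, passed that test, in which the chosen probe had an adjusted p of 0.0612. Gpx8 varied widely within both groups. Without control replicate 3 the adjusted p of Itih4 was 0.0990, and without control replicate 2 that of Gpx8 was 0.190.

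Bright probes of smaller change followed. Mpp1, a membrane scaffold protein first known from red cells, read 2120.03, 2021 and 2125 against 2849, 2915 and 3732 (0.59 ± 0.11, adjusted p = 0.0351). It stood at 0.58 after 3 days of high fat diet and at 0.13 in the PPARγ knockout. The red cell markers had medians of -0.08 and 0.36 in these sets, and of 0.23 in the C/EBPα knockout on chow. The part of red cells in the Mpp1 call was not tested. Plp2, a proteolipid of the endoplasmic reticulum, stood at 0.63 ± 0.13, Polr2d, a subunit of RNA polymerase II, at 0.55 ± 0.11, Sra1, known as the steroid receptor RNA activator, at 0.46 ± 0.09, and 1810037I17Rik at 0.40 ± 0.08. All 4 Polr2d probes were above 0 (0.19 to 0.55), while the 3 Sra1 probes disagreed (0.46, 0.31 and -0.37, the last of them dim). Meiob, a DNA-binding gene of meiosis, read 193, 152 and 189.8 against 263, 263 and 265 (0.53 ± 0.11, adjusted p = 0.0460). Each of these 6 calls was lost in at least 5 of the 6 fits that left out 1 array.

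The other 7 higher genes were near background. Cpne9, a calcium-dependent lipid-binding copine, read 9.55, 17.7 and 8.49 against 43.1, 49.3 and 51.5, with 1 of 3 controls above background (1.21 ± 0.24, adjusted p = 0.0375). In 4 genes no control array was above background, so that only a bound can be given: H2-M11, a non-classical MHC gene, at least 1.51-fold higher, 4933402J07Rik at least 1.43-fold, the riboflavin kinase gene Rfk at least 1.31-fold and the translation initiation subunit gene Eif3m at least 1.25-fold. The 3 knockout arrays by themselves were enough for these 4 genes to pass the filter on dim probes. The olfactory receptor gene Olfr495 (17.0, 18.0 and 15.8 against 31.5, 32.3 and 36.3) and the secreted protein gene Fam3b (11.7, 12.1 and 12.4 against 24.7, 25.8 and 20.3) were low on all arrays, and the Fam3b probe was above background on 2 of 3 controls. Without background correction 12 of the 32 calls were lost: Olfr495, Adam10 and 10 of the 11 genes not above background on all arrays, Cpne9 being the one kept.

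The same knockout was also measured on the other diet, with knockout and control arrays of its own, and 2.43% of all genes were called after 3 days there. Of the 17 genes lower on chow, 7 were called lower after 3 days of high fat diet, where 1.58% of all genes were: Cebpa, Nudt6, Mup2, Mup6, Retn, Jak1 and 1700029I15Rik. Cebpa is the targeted gene in both sets, and the probes of Mup2 and Mup6 may take up RNA of more than 1 family member. Of the 15 higher genes, Itih4 and Mpp1 were called higher there, against 0.844% of all genes. The log2 fold change of Cebpa was -2.08 on high fat diet and -1.003 on chow, a difference of 1.08 (95% interval 0.63 to 1.53, adjusted p = 0.110). Retn stood at -1.39 against -0.95, and Itih4 at 1.55 against 0.97, while Mup2 (-1.36 against -1.81), Mup6 (-1.32 against -1.73) and Nudt6 (-0.88 against -1.49) were farther from 0 on chow. The intervals of these differences included 0 for Retn, Mup2 and Mup6, but not for Nudt6 (-1.19 to -0.04) and Itih4 (-1.08 to -0.08), and none was called after adjustment.

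Read in the other direction, genes chosen by their change on high fat diet mostly had the same sign on chow at a smaller size. Of 123 genes called higher after 3 days of high fat diet 109 were above 0 on chow (88.6%, against 51.1% of all genes), with a median of 0.21 on chow and 0.55 on high fat diet, the latter being the values that chose them. Of 230 genes called lower, Cebpa left out, 195 were below 0 on chow (84.8%, against 48.9% of all genes), with medians of -0.20 and -0.62. In the chow arrays the groups were fully separated upward for 57 of the 123 (9.62% of all genes) and downward for 0. Of the 230, 86 were fully separated downward (8.27% of all genes) and 5 upward. After 1 month of high fat diet, where 20.4% of all genes were called, 6 of the 17 lower genes, the targeted Cebpa among them, were called lower (9.59% of all genes) and 4 of the 15 higher genes higher (10.8%). Of the genes called there, 1033 of 1577 higher ones were above 0 on chow and 885 of 1397 lower ones below. As each diet is its own set of arrays, diet and set cannot be told apart.

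**Figure D4:**
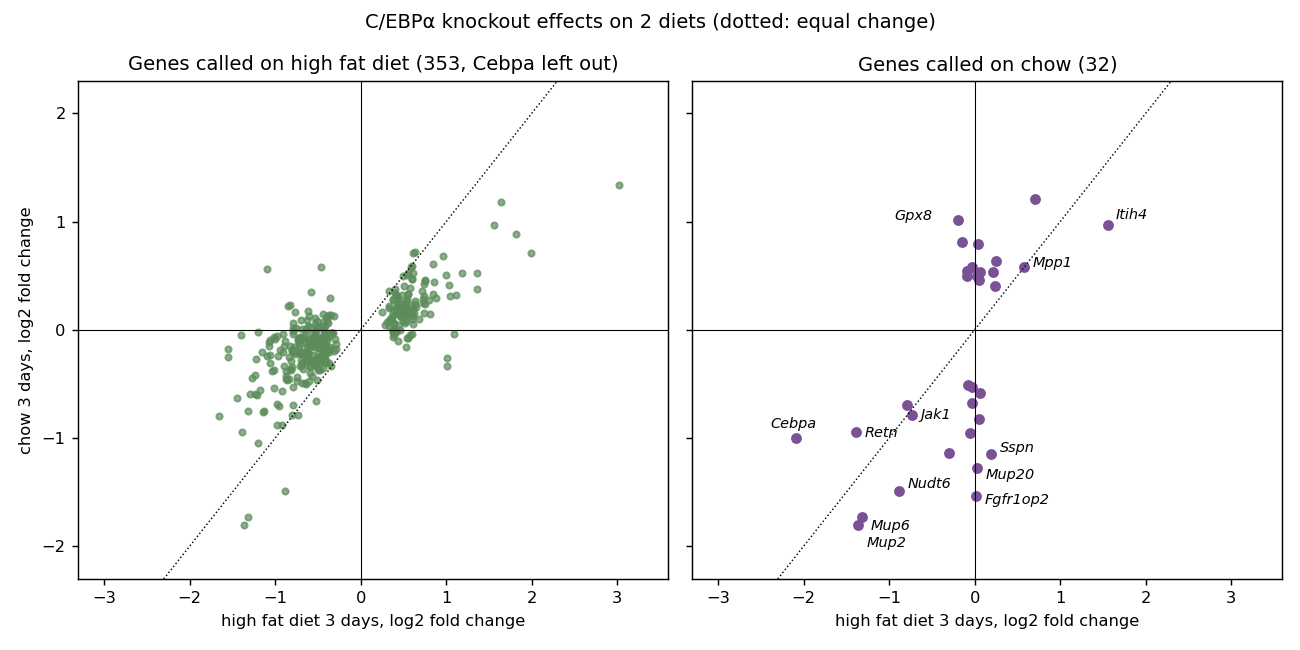
Log2 fold change on chow against that after 3 days of high fat diet, for the 353 genes called on high fat diet (left, Cebpa left out) and the 32 genes called on chow (right), with a dotted line at equal change. On the left most genes lie in the lower left or upper right quadrant and closer to 0 on chow. On the right many chow calls, Fgfr1op2, Sspn and Gpx8 among them, lie near 0 on high fat diet.

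The difference between the 2 knockout effects was tested for each gene, and 0 of 14579 genes were called (limma, 0% of the genes tested). At an unadjusted p under 0.05 there were 1383 genes (9.49%), and with equal weights 12 genes were called, Cebpa, Sspn, Adam10, H2-M11, Olfr495 and Fam3b among them. In the main fit these 6 had an adjusted p of 0.110. The chow calls with no counterpart on high fat diet, such as Fgfr1op2, Sspn and Gpx8 (1.02 on chow and -0.19 on high fat diet, interval of the difference 0.63 to 1.79), were thus not shown to differ after adjustment.

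In the PPARγ knockout on chow, which called 12.9% of all genes, 7 of the 17 lower genes were called lower too, where 6.13% of all genes were: Cebpa (-1.38), Retn (-1.26), Mup6 (-0.99), Nudt6 (-0.76), Jak1 (-0.76), Mup20 (-0.71) and 1700029I15Rik (-0.56). Of the 15 higher genes 6 were called higher (6.76% of all genes): Meiob, Itih4, Cpne9, Plp2, Eif3m and Sra1. Fip1l1 was called in the opposite direction, at 0.31. The test of the difference between the knockouts called 305 genes (2.09%), 176 with the higher effect in the C/EBPα knockout (1.21%) and 129 with the lower (0.885%). Of the 32 chow calls 15 differed, among them Gpx8 (by 1.51 ± 0.27, adjusted p = 0.00431) and Fip1l1 (by -0.99 ± 0.16, adjusted p = 0.00168). The 32 were chosen by the same chow arrays that enter this difference, so their share is not separate evidence of a difference. Some of the 15, Adamts17, Gbgt1 and H2-M11 among them, had probes that were not above background on every chow array. Mup2 differed by -1.33 ± 0.42 without being called (adjusted p = 0.101). Leaving out control replicate 2 reduced the 305 to 155, and leaving out control replicate 3 gave 201. The count was 152 when knockout replicate 2 was left out and 180 when knockout replicate 3 was.

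No member was called in the lists for lipid synthesis, breakdown and oxidation. Fatty acid and triglyceride synthesis had 0 of 23 called, 15 below 0, 8 separated downward (8.27% of all genes were) and 1 upward, with sums that overlapped (166931 to 195588 in controls, 166472 to 173803 in knockouts). Their median was -0.08 on chow, -0.31 after 3 days of high fat diet and -0.74 in the PPARγ knockout. Lipolysis and lipid droplet genes had 0 of 19 called, 4 separated downward and 1 upward, with sums that did not overlap (157807 to 166011 in controls, 139639 to 152300 in knockouts), and the droplet protein gene Pnpla3 read 7872, 9144 and 7723 against 6091, 4670.3 and 3128 without overlap (-0.88 ± 0.23, adjusted p = 0.135). This list shares Plin1, Cidec, Aqp7, Mgll and Pnpla2 with the textbook PPARγ targets, so their sums are not independent. Adipogenic transcription factors had 0 of 25 called, with 15 below 0 and 5 separated downward (8.27% of all genes were), and their summed signal did not overlap (29882 to 30149 in controls, 27975.5 to 28442 in knockouts). A large part of that fall was in the bright Pparg probe, not called, whose mean was 7375 in controls and 6303 in knockouts. The sums therefore do not show a shift of the whole list. Cholesterol synthesis had 0 of 17 called and a median of -0.15, insulin signalling and glucose use 0 of 24 with 0.03, fatty acid oxidation 0 of 20 with 0.02, and the respiratory chain and citrate cycle 0 of 24 with -0.04. Of the 14 tested adipokine genes Retn was the 1 called (0.117% of all genes were called lower). The insulin-like growth factor Igf1 (0.34 ± 0.11) was higher without overlap at an adjusted p of 0.253.

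Extracellular matrix genes lay above 0 together without a call. Of 33 tested 29 were above 0 and 11 were separated upward (9.62% of all genes were), with a median of 0.17 and 0 called. Their summed signal was 131124 to 137743 in controls and 140881 to 149185 in knockouts, without overlap. Periostin (Postn) read 64.8, 53.7 and 45.6 against 82.5, 80.5 and 77.5 (0.45 ± 0.12, adjusted p = 0.119), and the collagen VI gene Col6a1 was at 0.41 ± 0.11 (adjusted p = 0.120). Both were called with equal weights.

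The list of xenobiotic and retinoid enzymes also holds peroxidases. Its 1 called member of 24 was the peroxidase gene Gpx8 (0.219% of all genes were called), with a list median of 0.07. Of the 24, 7 were separated upward (9.62% of all genes) and 0 downward (8.27%). The cytochrome P450 gene Cyp2f2 read 3670.2, 2941 and 2618 against 8026, 5901 and 9705 (1.34 ± 0.33, adjusted p = 0.107), and stood at 3.02 on high fat diet and 2.36 in the PPARγ knockout. The aldehyde dehydrogenase Aldh3b2 (0.83 ± 0.18) was just outside the threshold (adjusted p = 0.0534). Acute phase proteins differed in sign, with Itih4 called higher, Hp at -0.59 ± 0.21, ceruloplasmin Cp at -0.36 ± 0.19 and a median of -0.18 over 12 genes. In the thyroid and growth hormone axis, 0 of 13 called, the thyrotropin receptor Tshr (79.8, 79.7 and 145 against 46.2, 52.7 and 23.2) stood at -1.05 ± 0.25 (adjusted p = 0.0875) and the growth hormone receptor Ghr at -0.43 ± 0.13. Lists for inflammation, brown and beige fat, branched chain amino acid breakdown, immediate early genes, endoplasmic reticulum stress, cell death, cell cycle, the circadian clock and sex-linked genes had 0 members called and medians between -0.07 and 0.11.

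**Figure D5:**
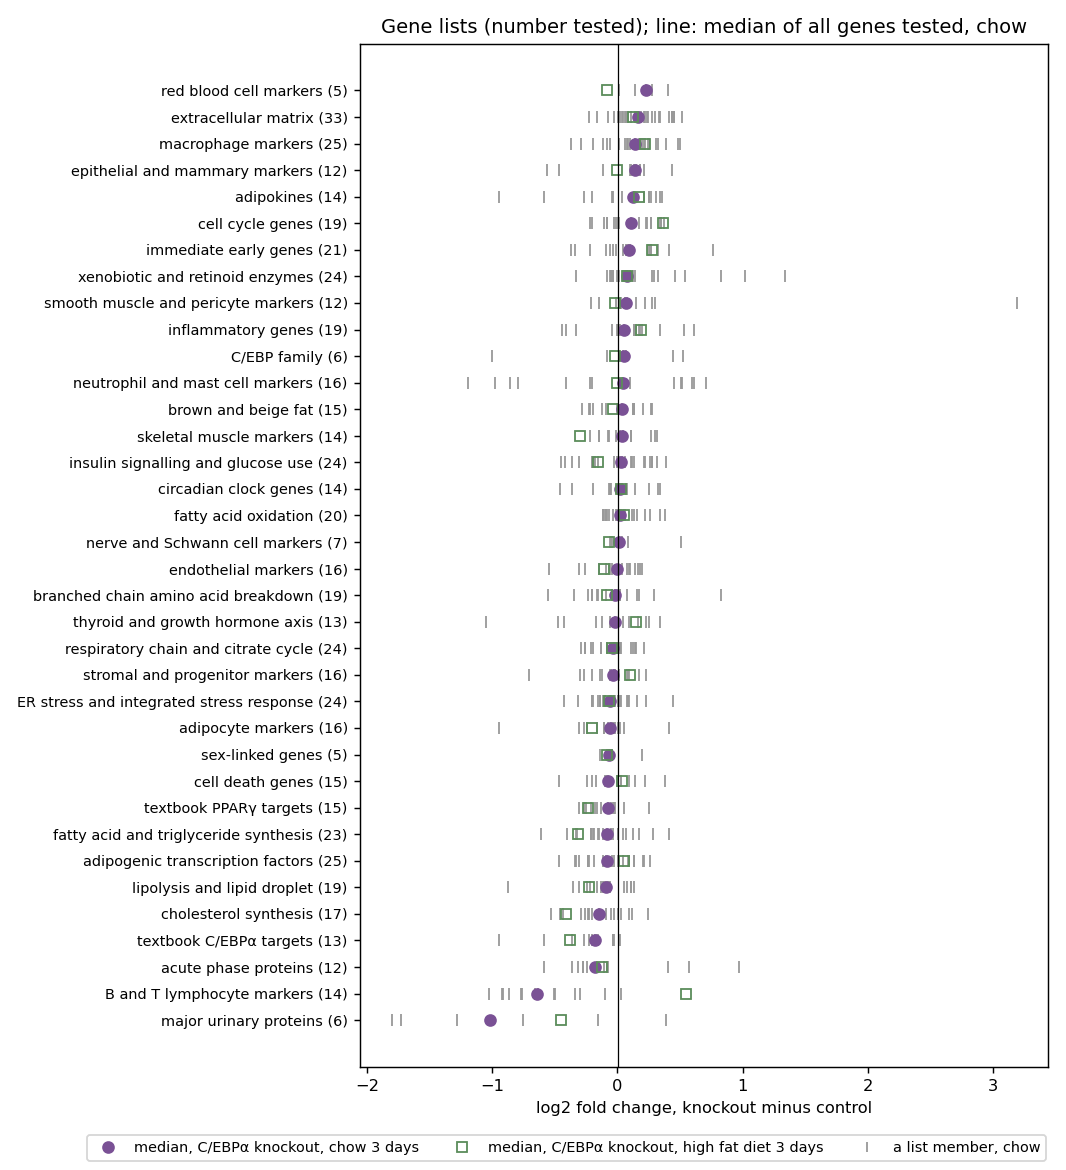
Medians of 36 gene lists for the C/EBPα knockout on chow (filled) and after 3 days of high fat diet (open squares), in log2 fold change, with each tested list member on chow as a tick and the number tested in brackets. The lowest chow medians are those of the major urinary proteins (-1.02) and the lymphocyte markers (-0.64), and most lists lie within 0.2 of the median of all genes.

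The largest fold change of any gene belongs to Csrp1, a LIM domain gene of smooth muscle, which was not called. Its signals were 27.7, 6.56 and 12.7 in controls and 305, 220 and 271 in knockouts (3.20 ± 0.92, adjusted p = 0.188). The groups did not overlap, and 2 of 3 controls were above background. It was called when the 6 arrays were fitted by themselves (adjusted p = 0.0201) and with equal weights (0.0400).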

How the data were processed

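RNA of whole subcutaneous fat was labelled as cRNA and hybridised to Illumina BeadChip arrays, per the labels' protocols. The values used are the intensities the authors deposited for each probe in the series' value table. Scanner software and normalization: not given in the sources used here. Sorted values of the 6 chow arrays differed by at most 0.705, as after quantile normalization within a set, which is an inference from the values, so the 4 sets were tested as sets normalized separately. Another 96 per-array columns that match no sample by name were not used. Of 45281 probes, 34885 had 1 gene symbol in the platform annotation, 18 had several and 10378 were not listed, and 34807 were found by Entrez ID in the RefSeq GRCm38.p6 gene table.

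The background of each set was taken as the peak of its log2 intensities (kernel bandwidth 0.05, chosen after seeing the data), with its SD from the lower side. It was removed by the normexp model, and the log2 of the result plus 16 was used, a scale that understates changes of dim genes. A probe was above background where at most 5% of background values would be as bright, and 30358 probes above it on at least 3 of 24 arrays were kept, giving 14579 genes by the probe of highest mean signal over all arrays. Of these, 13211 were above background on at least 3 of the 6 chow arrays.

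All 24 arrays entered a single limma fit (limma 3.58.1, R 4.3.3) with 8 group means of 3 arrays, 1 precision weight per set (chosen with earlier results known) and Benjamini-Hochberg adjustment over all genes; an adjusted p under 0.05 is a call. The procedure was tested on simulated data, where the share of false calls was above the nominal one. The labels number replicates 1 to 3 in each group. Deviations of same-numbered control and knockout chow arrays from their group means correlated at r = -0.05, -0.01 and -0.05, so the numbers were not taken to pair the arrays.

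The members and the 36 gene lists (642 genes, 539 tested) were chosen with earlier results of these data known. The text names Cebpa and its family, the 15 largest calls in each direction, called neighbours, up to 4 members per list by adjusted p, and the 5 largest differences from the PPARγ knockout in each direction. Genes outside that rule, such as Fgf2, Vamp8, Tvp23b, Ermap, Pparg, Itpr2, Ints13, Mup5, Mup21, Cma1, Tpsb2, Camp, S100a8, Ltf, Lep, Slc2a4, Scd1, Fabp4 and Cidec, were chosen after their values were seen. Alternatives changed the weights, arrays, background, offset, filter, probe choice, normalization, replicate block and threshold, and left out each array.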

Additional observations from a re-analysis of the deposited data

Results flagged for a closer look

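In 10 genes the effect of the C/EBPα knockout on chow differed most from that of the PPARγ knockout on chow, by limma's test of the difference itself, the 5 largest in each direction. The differences are log2 fold change in the C/EBPα knockout minus that in the PPARγ knockout, with adjusted p over all genes, and the 2 knockouts are separate sets of arrays, so the gene knocked out and the set cannot be told apart.

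In 5 genes the C/EBPα value was the higher one. Aldh3b2, an aldehyde dehydrogenase, differed by 2.23 ± 0.22 (adjusted p = 1.3e-05), at 0.83 in the C/EBPα knockout and -1.40 in the PPARγ knockout. The cadherin Celsr2 differed by 2.16 ± 0.30 (adjusted p = 3.9e-04), the acyl-CoA synthetase Acsm5 by 1.79 ± 0.27 (0.00104), the imprinted neuronatin Nnat by 1.75 ± 0.41 (0.0293) and the glycerol-3-phosphate dehydrogenase Gpd1 by 1.66 ± 0.27 (0.00163). In the C/EBPα knockout these 4 stood at 0.27, 0.07, 0.07 and 0.41, and in the PPARγ knockout at -1.89, -1.73, -1.68 and -1.25.

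In the other 5 the PPARγ value was the higher one. Angptl7, a secreted angiopoietin-like protein, differed by -4.40 ± 0.46 (adjusted p = 1.6e-05), Adamtsl2, a matrix protein, by -4.22 ± 0.46 (2.3e-05), Mup3 by -3.34 ± 0.34 (1.6e-05), the cytochrome P450 Cyp4f14 by -3.13 ± 0.30 (1.0e-05) and the lipid transporter Mfsd2a by -2.64 ± 0.31 (5.7e-05). Their C/EBPα values on chow were -0.02, 0.39, -0.75, 0.01 and -0.36, against 4.38, 4.61, 2.58, 3.14 and 2.28 in the PPARγ knockout.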

How the results depend on the processing

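The 32 calls became 162 with equal weights, 54 with 1 weight per array, 1 with only the arrays compared, 56 without background correction (20 of the 32 among them), 50 with a filter on the 6 chow arrays, 60 with quantile normalization over 24 arrays (24 of the 32), 90 at an adjusted p under 0.10, 3 at 0.01 and 53 with a background bandwidth of 0.08, an alternative added after seeing the data (30 of the 32). They stayed within 1.5 times, at 25 to 34, with an offset of 50, no filter, the probe chosen on 6 arrays, every probe, or smaller bandwidths. Leaving out 1 array gave 4 (without control replicate 3) to 29 calls. Fitting fewer arrays lowers the precision by construction; for the other settings the cause was not tested. The replicate block, though the numbers do not pair the arrays, left 2 calls, both among the 32, and Cebpa at -1.003 with an adjusted p of 0.0778. Cebpa was also at -1.003 with only the arrays compared (adjusted p = 0.0946) and against a threshold of 0.01 (0.0105), and ranged from -1.08 to -0.93 when 1 array was left out, adjusted p = 0.0990 without control replicate 3.

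Genes whose effect differed between diets numbered 0, but 12 with equal weights, 12 with 1 weight per array and 0 to 2 when 1 array was left out. Those that differed from the PPARγ knockout numbered 305, but 466 without background correction, 464 with quantile normalization, 148 with the replicate block, 624 at 0.10, 77 at 0.01 and 152 to 240 when 1 array was left out. The share of genes called on high fat diet with the same sign on chow ranged from 87.0% to 90.2% for higher and from 75.7% to 87.4% for lower genes when 1 array was left out. Jak1 reversed to 0.022 (adjusted p = 0.979) with the probe chosen on the 6 chow arrays. The alternatives were also tallied over the called genes and the named genes with an unadjusted p under 0.05, Cebpa left out. There 1784 values kept their side of the threshold, uncalled genes that stayed uncalled among them, 272 lost the call, 31 gained it and 1 reversed. Cebpa kept its call in 19 of 23 alternatives. Of the 32 probes, 11 were too near background for a level on every array.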

Other observations

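The largest fall of any gene on chow was that of Glycam1, an endothelial mucin of lymph node venules, looked up after its values were seen. It read 206, 761 and 555 in controls and 122, 162 and 7.68 in knockouts, without overlap, and was not called (-2.47 ± 1.17, adjusted p = 0.430). Ccl21c, a chemokine gene of lymph nodes, read 445, 1058 and 690.2 against 255, 287 and 155 (-1.55 ± 0.54, adjusted p = 0.281). Both varied widely within groups. The B and T lymphocyte markers, with 13 of 14 below 0 on chow, had a median of -0.64 here and of 0.55 after 3 days of high fat diet in the same knockout. Their part in the results on chow was not tested.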
